A study of Mus musculus with 2 samples.

Results

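Lipid uptake, storage and efflux were followed through 10 genes in the immune cells of mouse islets, chosen by symbol from the 32285 genes of the feature table. All 10 were found. Cd36, Lpl and Fabp5 take up or carry fatty acids, Trem2, Gpnmb and Spp1 are known from lipid-laden macrophages, Plin2 coats lipid droplets, and Apoe, Abca1 and Abcg1 serve cholesterol efflux. Cd36 and Lpl, on one side, and Gpnmb, Trem2 and Spp1, on the other, were singled out because earlier readings of these cells showed them opposed along surface CD9. Their levels along CD9 and CD206 are therefore a description, and nothing below was tested.

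Islets of 6 to 8 wild-type C57BL/6J male mice (myeloid WT in the study's design) were pooled, and live Epcam-CD45+ cells were sorted. They were stained with barcoded antibodies against CD9, a tetraspanin, and CD206, the mannose receptor encoded by Mrc1, and read as 1 mRNA library and 1 antibody library on the same 2237 barcodes. The mice received no treatment named in the labels, and the sources used here give no age. With all animals pooled into 1 sample there are no replicates, and every interval below is a 95% interval that covers counting error only.

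Macrophages were the 1669 of 2175 kept cells (76.7%) with at least 5000 RNA UMIs (unique molecular identifiers, the count of captured RNA molecules) and with the complement genes C1qa, C1qb and C1qc together at 2000 CPM or more. CPM divide the summed UMIs of a gene by all RNA UMIs of the same cells, scaled alike for every group. The cell just inside the complement limit had 2062 CPM and the cell just outside it 1996 CPM, the corresponding RNA totals were 5022 and 4965 UMIs, and 123 cells passed the complement limit with too few UMIs. Macrophages held a median of 20854 RNA UMIs (quartiles 16623 and 25522), 636 CD9 UMIs (89 and 2346) and 9 CD206 UMIs (4 and 21). Clustering placed 1584 of them (94.9%) in macrophage-like clusters. Lyz2, a macrophage lysozyme that the selection did not use, stood at 1379 CPM in macrophages, 10.2 CPM in lymphoid cells and 6776 CPM in monocyte-like cells, so it does not set macrophages apart from the last.

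Macrophages meet lipid as lipoproteins, as free fatty acids and as membranes of engulfed cells. Lipoprotein lipase (Lpl) frees fatty acids from triglyceride, CD36 takes up fatty acids and oxidised lipoprotein, and FABP5 carries fatty acids inside the cell, while TREM2 senses lipids at the surface and signals through the adaptor DAP12 (Tyrobp). Surplus lipid is kept in droplets coated with perilipin 2 (Plin2), and cholesterol leaves through the transporters ABCA1 and ABCG1, under control of the liver X receptors. ABCA1 passes it to apolipoproteins such as APOE. Osteopontin (Spp1) is a secreted matrix protein and GPNMB a lysosomal glycoprotein, and both are widely used as markers of lipid-associated macrophages.

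The cells were ranked by the 2 antibody tags read beside the RNA, shown here with capitals where their bases differ (14 of 15 positions).
CD9 tag: tAGCAGTCACTCCTA
CD206 tag: tCAACTCGGTGTTGC

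Promoter sequence, the 250 bases before an annotated start (RefSeq, GRCm38.p6, the assembly of mm10), was found for 7 of the 10 genes in 10 windows. The windows of Cd36 on one side and of Trem2, Gpnmb and Spp1 on the other are shown because these genes carry the opposed patterns. Capitals mark matches to a searched motif on either strand, and all run 5′ to 3′ on the strand of the gene.
Cd36, chr5:17835897-17836146, minus strand: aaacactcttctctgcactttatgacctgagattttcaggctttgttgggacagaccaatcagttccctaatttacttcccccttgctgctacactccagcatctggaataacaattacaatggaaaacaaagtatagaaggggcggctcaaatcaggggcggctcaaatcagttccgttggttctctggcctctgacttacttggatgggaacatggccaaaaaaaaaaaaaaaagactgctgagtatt
Trem2, chr17:48346151-48346400, plus strand: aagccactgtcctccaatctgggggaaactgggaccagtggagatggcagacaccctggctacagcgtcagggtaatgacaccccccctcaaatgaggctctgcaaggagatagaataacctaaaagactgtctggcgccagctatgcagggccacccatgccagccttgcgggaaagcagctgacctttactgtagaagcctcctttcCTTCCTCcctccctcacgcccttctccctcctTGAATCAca
Gpnmb, chr6:49036268-49036517, plus strand: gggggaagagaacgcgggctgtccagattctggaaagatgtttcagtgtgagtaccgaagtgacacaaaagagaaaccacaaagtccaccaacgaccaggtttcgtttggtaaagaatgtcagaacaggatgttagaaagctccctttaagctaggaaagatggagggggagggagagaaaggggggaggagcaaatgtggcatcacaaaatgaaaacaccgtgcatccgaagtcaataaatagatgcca
Spp1, chr5:104434861-104435110, plus strand: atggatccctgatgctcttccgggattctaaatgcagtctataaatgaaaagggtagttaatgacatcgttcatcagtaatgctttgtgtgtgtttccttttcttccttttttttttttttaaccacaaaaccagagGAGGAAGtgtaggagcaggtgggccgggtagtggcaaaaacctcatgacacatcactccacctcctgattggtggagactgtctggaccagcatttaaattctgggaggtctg
The Trem2 window held TGAATCA, a match to the AP-1 motif TGANTCA, 9 to 3 bases before the start, and CTTCCTC, the reverse complement of the PU.1-type motif GAGGAAG, 41 to 35 bases before it. The Spp1 window shown held GAGGAAG 113 to 107 bases before the start, and the window of a second annotated Spp1 start (chr5:104435942-104436191), not shown, held no searched motif. No searched motif occurred in the Cd36 or Gpnmb window, which says only that these letters are not there. Of all 32851 mouse windows of this length, 6.75% held TGANTCA and 10.6% held GAGGAAG. The other motifs searched on both strands were TCATGTG (3.25% of windows), the E-box CACGTG (6.02%), direct repeats of AGGTCA spaced by 1 base (0.0335%) or by 4 bases (0.0152%), read by PPAR and by liver X receptor dimers, and no motif overlapped another in the windows shown. The Cd36 window lies inside the annotated span of the gene (chr5:17781690-17888959), which extends further upstream. UMI counts do not tell which start was used.

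All 10 genes were at least 1.5-fold higher in macrophages than in the 122 T, NK and B cell-like cells, where 26.6% of all 13199 genes were that much higher and 49.1% that much lower. The fatty acid receptor Cd36 stood at 746 CPM in macrophages and at 12.8 CPM in lymphoid cells, a ratio of 58.3 (35.4 to 104). Its 15 lymphoid UMIs all lay in the 29 B cell-like cells. Lpl stood at 66.1 CPM in macrophages and had 3 UMIs in lymphoid cells (ratio 25.8, 8.83 to 125). Trem2 stood at 127 CPM in macrophages with 2 UMIs in lymphoid cells (74.7, 20.7 to 617), and Gpnmb at 24.4 CPM with 1 UMI (28.6, 5.11 to 1129).

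The droplet protein gene Plin2 was at 472 CPM in macrophages and 13.6 CPM in lymphoid cells (ratio 34.6), and Spp1 at 112 and 14.5 CPM (7.75). Apoe reached 8940 CPM in macrophages and 162 CPM in lymphoid cells (55.2). These ratios have a background, since the complement genes, which lymphoid cells lack, stood there at 0.831% (C1qa) to 0.926% (C1qc) of their macrophage level. The same genes selected the macrophages, and lymphoid cells were taken from outside that selection. These shares therefore give no independent size of the background. Apoe, Cd36, Trem2, Plin2, Gpnmb and Lpl lay at 1.34% to 3.87% of the macrophage level in lymphoid cells.

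The remaining genes were shared with lymphoid cells. Abca1 had 343 CPM in macrophages and 102 CPM in lymphoid cells, most of it from B cell-like cells (292 CPM). Abcg1 had 211 CPM in macrophages and 105 CPM in lymphoid cells, a ratio of 2.01 (1.68 to 2.42). Fabp5 had the lowest ratio, with 54.1 CPM in macrophages and 33.3 CPM in lymphoid cells (1.63, 1.19 to 2.30). However, 1 lymphoid cell held 11 of its 39 UMIs there, and without it the ratio was 2.24 (1.54 to 3.37). Abcg1 without its richest lymphoid cell had a ratio of 2.08 (1.74 to 2.52), so that the order of these 2 genes turned on 1 cell. When every cell was thinned to 5000 UMIs, which left out 15 shallower lymphoid cells, 11.9% of macrophages (10.4 to 13.6%) and 11.2% of lymphoid cells (5.93 to 18.8%) held a Fabp5 UMI.

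The 17 monocyte-like cells came closest to the macrophages. Their cluster was led by S100a9 and S100a8 and passed 7 of 7 monocyte markers but also 4 of 6 neutrophil markers. Macrophages were at least 1.5-fold higher for 5 genes and at least 1.5-fold lower for 2, where 42.9% of all genes were higher and 26.3% lower. The 2 lower genes were Gpnmb, with 24.4 CPM in macrophages and 90.8 CPM in monocyte-like cells (ratio 0.27, 0.18 to 0.43), and Fabp5, with 54.1 and 158 CPM (0.34, 0.25 to 0.48). However, 1 monocyte-like cell held 18 of the 23 Gpnmb UMIs, and without it the ratio was 1.12 (0.48 to 3.46), so that its direction turned on 1 cell. Fabp5 without its richest monocyte-like cell had a ratio of 0.48 (0.32 to 0.73). Cd36 had 746 CPM in macrophages and 517 CPM in monocyte-like cells, or 322 CPM (2.32, 1.85 to 2.95) without the cell that held 57 of its 131 UMIs. Plin2 had 472 and 395 CPM, or 268 CPM (1.76, 1.37 to 2.31) without the cell that held 39 of its 100 UMIs. Both thus passed 1.5-fold only without their richest cell, and all 10 monocyte-like Spp1 UMIs lay in 1 cell. Lpl had no UMI in monocyte-like cells and was at least 5.58-fold higher in macrophages against a floor of 3 UMIs over the class. The 23 endothelial-like cells exceeded macrophages in Lpl, with 66.1 CPM in macrophages and 216 CPM in endothelial-like cells (0.31, 0.24 to 0.39), and in Abca1, with 343 and 521 CPM. Their cluster passed 7 of 7 endothelial markers but also 3 of 6 fibroblast or pericyte markers. A single cell held 41 of the 79 endothelial-like Lpl UMIs, and without it the level was 111 CPM (0.60, 0.43 to 0.84). Abca1 without its richest cell was at 441 CPM (0.78, 0.66 to 0.92). Against these cells 6 genes were at least 1.5-fold higher in macrophages and 2 lower, where 34.4% of all genes were higher and 38.7% lower. A cluster of 58 cells led by Ly75, Timd4 and Zfp366, left unnamed because markers of several dendritic cell types passed in it, held Cd36 at 112 CPM and Fabp5 at 78.8 CPM.

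Among macrophages the genes ranged from widespread to cell-restricted, as the plot of cumulative UMIs shows. Apoe had a UMI in 99.9% of the macrophages, Plin2 in 96.3%, Abca1 in 93.6%, Abcg1 in 86.3% and Cd36 in 81.2%. Trem2 had a UMI in 68.1%, Lpl in 42.4%, Spp1 in 26.1%, Fabp5 in 22.2% and Gpnmb in 5.99%. The 10% of macrophages richest in a gene held 26.8% of the UMIs of Apoe, 43.0% of those of Cd36, 42.8% of those of Trem2, 60.9% of those of Lpl, 87.3% of those of Fabp5 and 89.5% of those of Spp1. Gpnmb had UMIs in 100 cells only, and 21 cells with 10 or more held 77.6% of them. Such shares also depend on a gene's level, which ran from 24.4 CPM for Gpnmb to 8940 CPM for Apoe. Trem2 and Spp1 differed in these shares at similar levels, 127 and 112 CPM.

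**Figure D1:**
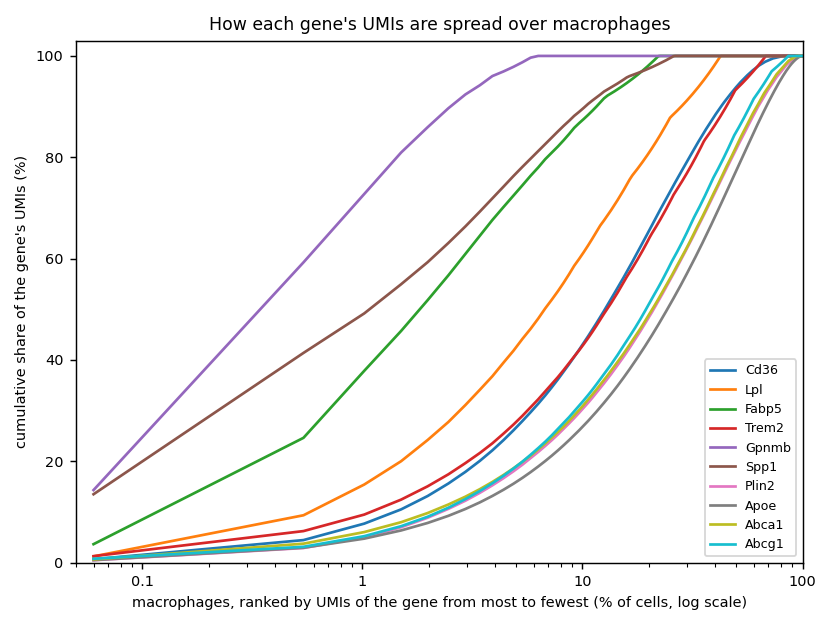
Cumulative share of each gene's UMIs (%) against the share of macrophages, ranked from most to fewest UMIs of that gene (% of 1669 cells, log axis), with 1 line per gene. Gpnmb, Spp1 and Fabp5 rise at the left, where few cells hold most UMIs, and Apoe, Plin2, Abca1 and Abcg1 lie lowest, with 26.8% to 31.7% of their UMIs in the richest 10% of cells.

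A single macrophage carried the most UMIs of both Gpnmb (126, 14.3% of the gene's total) and Spp1 (548, 13.5%). The same cell held 56 Fabp5, 15 Trem2 and 229 Apoe UMIs but 1 Cd36 and 0 Lpl UMIs, among 26572 RNA UMIs. Its complement level was 2296 CPM, near the lower limit for macrophages, its antibody counts were 5219 CD9 and 119 CD206 UMIs, and 837 macrophages had a higher doublet score. The ratios of Gpnmb and Spp1 between antibody terciles of all macrophages are therefore given with and without it. A second cell, in the Hspa1b and Hspa1a cluster, held 492 Spp1 UMIs.

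Cells rich in Gpnmb were also often rich in Fabp5 and Trem2. Of the 21 cells with at least 10 Gpnmb UMIs, 12 (57.1%, 34.0 to 78.2%) held at least 10 Fabp5 UMIs, against 2.37% of the other macrophages. Trem2 reached 10 UMIs in 9 of the 21 (42.9%, 21.8 to 66.0%) and in 5.22% of the others, and Spp1 in 6 of the 21 (28.6%, 11.3 to 52.2%) and in 4.67%. Cd36 reached 10 UMIs in 12 of the 21 (57.1%) and in 43.6% of the others, Lpl in 3 of the 21 (14.3%, 3.05 to 36.3%) and in 2.79%, and Abca1 in 13 of the 21 (61.9%, 38.4 to 81.9%) and in 26.8%. The 21 cells had a median of 27098 RNA UMIs, against 20828 in the others, and shares at a fixed number of UMIs depend on that total. On the CPM scale, which divides by that total, Trem2 stood at 515 CPM in the Gpnmb-rich cells and 121 CPM in the others, Fabp5 at 613 and 44.5 CPM, and Abca1 at 565 and 339 CPM. Lpl was at 125 and 65.1 CPM and Cd36 at 595 and 749 CPM, the one higher and the other lower in Gpnmb-rich cells.

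The 83 cells with at least 10 Spp1 UMIs looked different. None held 10 Lpl UMIs, which allows a share of up to 4.35%, against 3.09% of the other macrophages. Cd36 stood at 421 CPM in them and 769 CPM in the others, Lpl at 31.0 and 68.5 CPM, Gpnmb at 123 and 17.5 CPM, and Fabp5 at 215 and 42.9 CPM. Without the richest cell Gpnmb was at 69.9 CPM and Fabp5 at 194 CPM in the Spp1-rich cells. Trem2 differed less, at 176 and 124 CPM.

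Macrophage clusters were built without the 10 genes, the lipid, stress and hormone lists and mitochondrial genes, and they are named by their 2 leading genes. Cd36 was highest in the Npnt and Cxcl3 cluster (1481 CPM), the Slc40a1 and Lpar6 cluster (1369 CPM) and the Gdf15 and Cxcl2 cluster (1241 CPM). It was at 244 to 611 CPM in the other 6 clusters, with 383 CPM in the Pltp and Clec4e cluster. Lpl followed it in the first 2, at 120 and 125 CPM, but not in the Gdf15 and Cxcl2 cluster (58.3 CPM). The Gm47507 and Tll2 cluster, with Cd36 at only 244 CPM, had Lpl at 94.9 CPM (65.3 to 133). Pparg, the nuclear receptor that drives lipid uptake genes in macrophages, had its 2 highest levels in the same clusters as Lpl, 304 CPM in the Npnt and Cxcl3 cluster and 428 CPM in the Slc40a1 and Lpar6 cluster.

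The Pltp and Clec4e cluster (226 cells) held Gpnmb at 81.1 CPM (63.7 CPM without its richest cell there) and Fabp5 at 101 CPM, the highest levels of both genes, and 12 of the 21 Gpnmb-rich cells. The Ifit3 and Cmpk2 cluster, where the richest cell lay, held 3 of them, and no other cluster held more than 2. Gpnmb in the Ifit3 and Cmpk2 cluster was at 32.8 CPM, or 14.7 CPM without its richest cell, and in the Ifnb1 and Il1a cluster at 46.5 and 14.3 CPM. Spp1 levels of clusters rested on few cells. Single cells held 548 of 1035 Spp1 UMIs in the Ifit3 and Cmpk2 cluster and 492 of 979 in the Hspa1b and Hspa1a cluster, whose levels were 150 and 174 CPM with these cells and 70.7 and 87.2 CPM without them. Without the richest cell of each, Spp1 was at 139 CPM in the Pltp and Clec4e cluster, 153 CPM in the Ifnb1 and Il1a cluster, 116 CPM in the Gm47507 and Tll2 cluster and 21.3 to 54.1 CPM in the other 4. Trem2 varied least of this group, between 89.2 CPM in the Npnt and Cxcl3 cluster and 170 CPM in the small Gm47507 and Tll2 cluster (27 cells). Among the efflux genes Abcg1 ran from 71.7 CPM in the Ifnb1 and Il1a cluster to 388 CPM in the Myo1f and Tgfbr1 cluster, while Apoe stayed between 7373 and 12307 CPM.

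**Figure D2:**
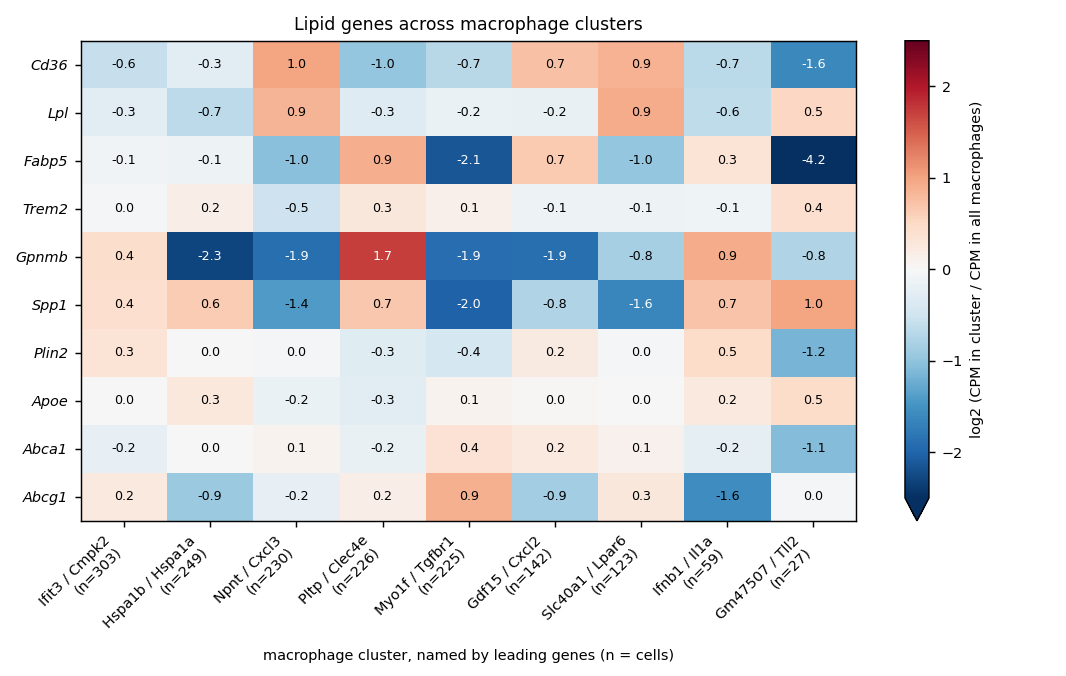
Log2 ratio of each gene's CPM in a macrophage cluster to its CPM in all 1669 macrophages (colour and printed value, the colour scale ending at 2.5 either way), with clusters named by leading genes and n as cells. Cd36 and Lpl are high in the Npnt / Cxcl3 and Slc40a1 / Lpar6 clusters, and Gpnmb and Fabp5 in the Pltp / Clec4e cluster.

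To follow the genes along CD9, macrophages were ranked by CD9 UMIs within deciles of their RNA total and split into 10 equal ranges (160 to 170 cells), or into terciles of 559 cells with medians of 3147 and 54 CD9 UMIs in the upper and the lower one. Median RNA totals were 20854 and 20831 UMIs. Cd9 mRNA ran from 12.8 CPM in the lowest decile to 446 CPM in the highest. Of the 10 genes, 4 were at least 1.5-fold higher in the upper tercile and 2 lower, where 11% of 12091 genes were higher and 5.57% lower. The median log2 ratio was 0.27 over the 10 genes and 0.09 over all genes. Since these values chose the genes, the counts carry no weight beyond description.

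Cd36 and Lpl were lower where CD9 was high. Cd36 had 410 CPM in the upper and 1228 CPM in the lower CD9 tercile, a ratio of 0.33 (0.32 to 0.34), and declined over the deciles from 1482 CPM in the lowest through 712 CPM in the fifth to 257 CPM in the highest. The share of thinned cells with a Cd36 UMI was 47.6% in the upper and 84.3% in the lower tercile. Lpl had 41.7 CPM in the upper and 97.1 CPM in the lower tercile (0.43, 0.39 to 0.48), and ran from 116 CPM in the lowest decile to 27.5 CPM in the highest. Fabp5, the third uptake gene, went the other way, with 63.1 and 41.4 CPM (1.52, 1.36 to 1.71, or 1.42 without its richest cell), but nearly equal shares of thinned cells held it, 12.5% in the upper and 12% in the lower tercile.

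Trem2, Gpnmb and Spp1 were higher where CD9 was high, and they differed in how many cells carried this. Trem2 had 168 CPM in the upper and 93.7 CPM in the lower tercile, a ratio of 1.79 (1.67 to 1.93), with a UMI in 45.8% and 29.7% of thinned cells. Its highest levels, 190 and 184 CPM, were those of the 2 highest deciles. Spp1 had 164 and 60.1 CPM (2.73, 2.5 to 2.98), or 2.01 without its richest cell. Its deciles did not form a trend: the ninth, which holds that cell, had 311 CPM and the highest 81.0 CPM. Gpnmb had 44.4 CPM in the upper and 7.19 CPM in the lower tercile (6.18, 4.91 to 7.86), or 4.8 without its richest cell, yet only 16 upper and 11 lower cells held a Gpnmb UMI after thinning. The mean log2 ratio of these 3 genes was 1.64, and 0.90 with a complement limit of 4000 CPM, which leaves out the richest cell. Gpnmb alone had a log2 ratio of 2.63, which was 1.33 at that limit, 1.56 with doublet candidates kept and 1.54 without the 10% of cells richest in stress RNA.

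**Figure D3:**
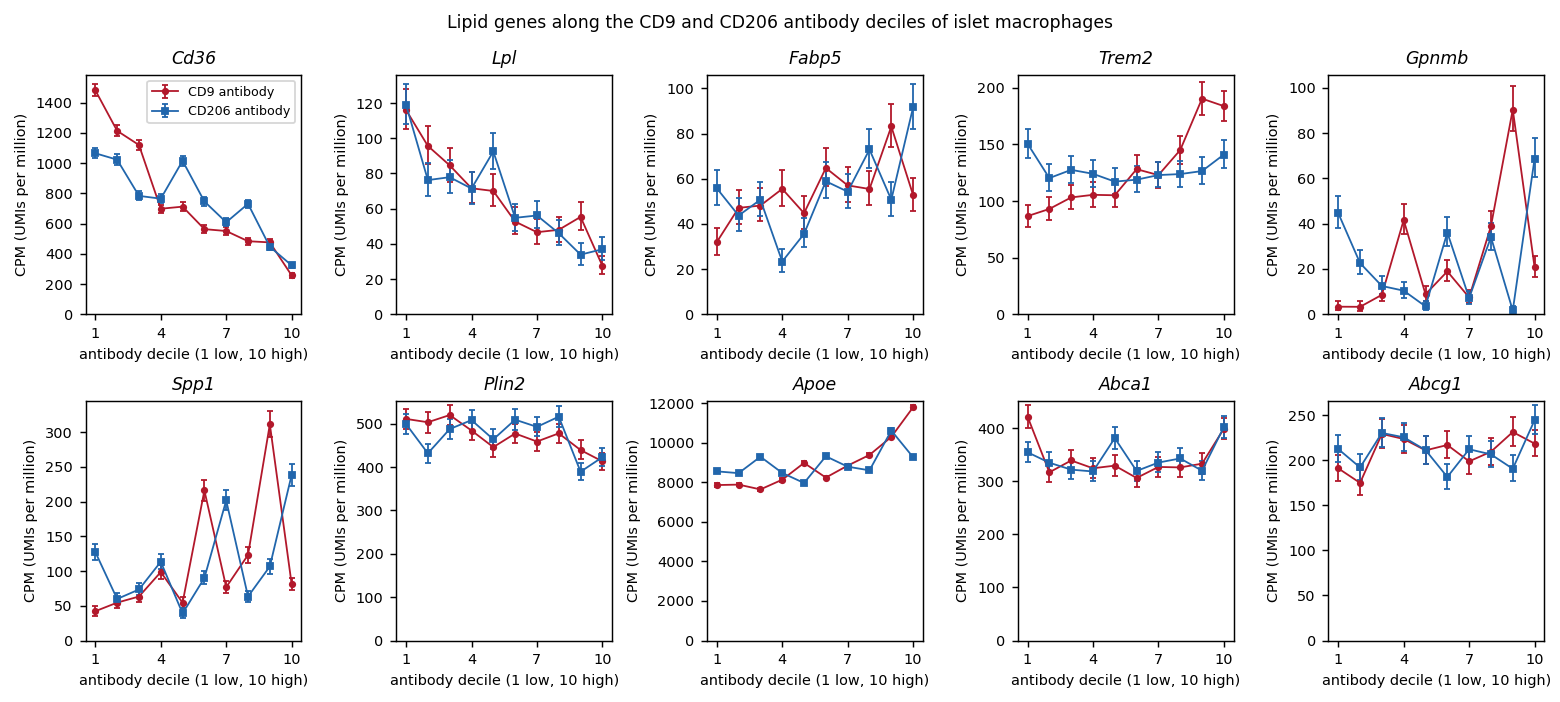
Level of each gene (CPM, bars are 95% counting intervals) against the antibody decile of macrophages (1 low, 10 high), for CD9 (red circles) and CD206 (blue squares). Cd36 and Lpl decline along both antibodies, Trem2 and Apoe rise along CD9, and single deciles stand out for Gpnmb and Spp1.

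Of the storage and efflux genes Apoe was higher with CD9, at 10395 and 7758 CPM in the upper and the lower tercile, a ratio of 1.34. It ran from 7858 CPM in the lowest decile to 11792 CPM in the highest. Plin2 was at 440 and 513 CPM (0.86, 0.83 to 0.89), Abcg1 at 214 and 197 CPM (1.09) and Abca1 at 353 and 352 CPM (1.0, 0.96 to 1.05). The ratios of both transporters lay within 1.5-fold, as did that of Apoe.

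Other RNA moved with CD9 as well. Immediate-early and heat-shock genes summed to 9805 CPM in the upper and 12392 CPM in the lower tercile (none of 16 genes at least 1.5-fold higher, 2 lower). The 8 endocrine markers summed to 2489 and 3633 CPM (1 higher, 3 lower). Markers of monocytes summed to 55.3 and 21.6 CPM, with all 4 measured of 7 at least 1.5-fold higher, and those of endothelium to 21.2 and 10.5 CPM, with all 4 measured of 7 higher. Type 2 conventional dendritic cell markers summed to 340 and 297 CPM, with 5 of 8 higher and 1 lower, and migratory dendritic cell markers to 55.6 and 30.5 CPM, with 2 of 4 measured higher. Those of type 1 conventional dendritic cells summed to 920 and 1160 CPM, with 1 of 7 higher and none lower. T cell markers summed to 621 and 594 CPM, with none of 4 measured higher and 3 lower. The part of these cell types in the result was not tested. The mean log2 ratio of Cd36 and Lpl was −1.40, and it was −1.36 without the 10% of cells richest in stress RNA, −1.36 without those richest in hormone RNA, and −1.42 in macrophage-like clusters alone.

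Other genes of lipid handling came from lists drawn up with these results known. Of 12 measured lipoprotein and scavenger receptors, 5 were at least 1.5-fold higher in the upper CD9 tercile and 1 lower, with a median log2 ratio of 0.28, while their summed levels were 1279 and 1273 CPM in the upper and the lower tercile. Lrp1, a receptor for APOE-bearing lipoproteins, had 122 and 53.3 CPM (2.28), the apoptotic cell receptor Mertk 19.0 and 10.2 CPM (1.86), and the scavenger receptor Msr1 41.2 and 24.9 CPM (1.66). The scavenger lectin Colec12 was lower, at 0.477 and 8.28 CPM (0.06).

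Of 14 measured efflux and liver X receptor genes, 6 were higher and 1 lower. Apoc2, the cofactor that activates lipoprotein lipase, had 29.6 CPM in the upper and 12.3 CPM in the lower tercile (2.40). The phospholipid transfer protein gene Pltp had 29.8 and 16.1 CPM (1.86) and Nr1h3, which encodes liver X receptor alpha, 8.82 and 5.24 CPM (1.68). Ch25h, which makes 25-hydroxycholesterol, had 50.6 and 76.9 CPM (0.66). Of 8 measured genes of PPAR gamma and its partners none was higher and 3 were lower, among them Pparg itself with 139 and 213 CPM (0.65, 0.61 to 0.69), the same direction as Cd36 and Lpl. Acsl1, which activates long-chain fatty acids, was lower too, with 153 and 255 CPM (0.60).

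Lysosomal and TREM2 signalling genes differed little as lists, with median log2 ratios of −0.03 (1 of 16 higher, none lower) and 0.12 (1 of 11 higher, none lower), though the cathepsin gene Ctsd had 423 and 235 CPM (1.80). Of 10 storage and hydrolysis genes 1 was higher, the hormone-sensitive lipase gene Lipe (11 and 6.68 CPM, 1.64), and 1 lower. Of 11 sterol synthesis genes 2 were higher and none lower, and of 14 fatty acid uptake and activation genes 2 were higher and 1, Acsl1, lower. Over all genes, 11% were higher and 5.57% lower in the same comparison.

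CD206 gave a narrower ordering, with medians of 29 and 3 CD206 UMIs in its upper and lower terciles. Here 2 genes were at least 1.5-fold higher and 2 lower, where 6.53% of 12163 genes were higher and 5.3% lower. Cd36 had 520 CPM in the upper and 929 CPM in the lower CD206 tercile (0.56, 0.54 to 0.58), and Lpl had 40.1 and 90.6 CPM (0.44, 0.40 to 0.49). Over the deciles Cd36 ran from 1065 CPM in the lowest to 323 CPM in the highest, while Mrc1, the mRNA of CD206, ran from 4.44 to 119 CPM. Fabp5 was at 71.5 and 46.5 CPM (1.54). Trem2 had 132 and 133 CPM (0.99, 0.92 to 1.06), Apoe 9444 and 8783 CPM (1.08), and Abca1, Abcg1 and Plin2 lay at ratios of 1.06, 0.99 and 0.92.

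The group opposed to Cd36 did not hold together along CD206. Spp1 had 170 CPM in the upper and 86.9 CPM in the lower CD206 tercile (1.95), or a ratio of 1.44 without its richest cell. Gpnmb had 31.9 and 25.2 CPM (1.27, 1.09 to 1.48), and the ratio was 0.86 without that cell, so that its direction turned on 1 cell. Some stromal resident macrophage genes also moved with CD206, with 4 of 8 measured at least 1.5-fold higher and none lower. The 4 include Mrc1, which encodes CD206 itself and so adds nothing independent to this count. The sum over 10 genes was 177 CPM in the upper and 93.8 CPM in the lower tercile, mostly Mrc1 (67.5 and 4.89 CPM) and Stab1 (48.4 and 47.6 CPM). Cd163 had 16 UMIs in the upper and 0 in the lower tercile, and Lyve1 had 8 and 2. Monocyte markers summed to 60.2 CPM in the upper and 23.6 CPM in the lower tercile (3 of 5 measured higher), endothelial markers to 19.8 and 12.5 CPM (3 of 4 higher), type 2 conventional dendritic cell markers to 324 and 319 CPM (3 of 8 higher), and endocrine markers to 2362 and 3547 CPM (3 of 8 lower). The part of such cells in the result was not tested.

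CD9 and CD206 were themselves related (Spearman rho 0.38 over 1669 cells after ranking within RNA deciles), so the CD206 terciles were also drawn within each CD9 tercile. Cd36 was highest where both antibodies were low (1364 CPM) and lowest where both were high (298 CPM), and the corresponding levels of Lpl were 109 and 25.7 CPM. Within the lower, middle and upper CD9 tercile, the ratio of upper to lower CD206 was 0.80, 0.79 and 0.65 for Cd36 and 0.70, 0.61 and 0.41 for Lpl. These were closer to 1 than the pooled ratios, except for Lpl in the upper CD9 tercile.

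Trem2 was lower with CD206 at each CD9 level, with ratios of 0.78 (0.67 to 0.90), 0.86 (0.75 to 0.98) and 0.86 (0.77 to 0.95). The pooled ratio, however, was 0.99. In the upper CD9 tercile 1 cell held 7.55% of the Trem2 UMIs of the lower CD206 group. The Trem2 level was 162 and 84.2 CPM in the upper and the lower CD9 tercile where CD206 was high, and 189 and 108 CPM where it was low. Of the 10 genes, 2 were at least 1.5-fold higher with CD206 and none lower in the lower CD9 tercile, where 5.16% of genes were higher and 8.78% lower. The 2 were Spp1 (1.53) and Fabp5 (1.83). In the upper CD206 group the richest cell of each gene held 22.4% of its UMIs. In the lower CD206 group the richest cell held 29.8% for Spp1 and 10.7% for Fabp5. Ratios within CD9 terciles were not recalculated without such cells. In the middle CD9 tercile Gpnmb was higher and Lpl lower, where 6.57% of genes were higher and 8.45% lower. The richest cell held 34.5% of the Gpnmb UMIs in the upper CD206 group there and 24.1% in the lower one. In the upper CD9 tercile none was higher and 2 were lower, Cd36 and Lpl, where 6.93% were higher and 4.95% lower.

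**Figure D4:**
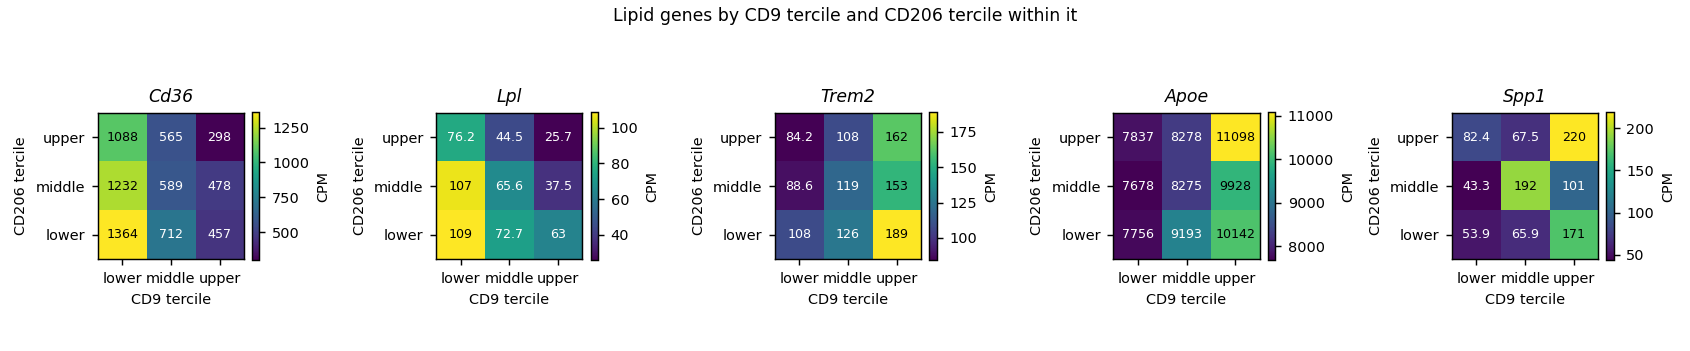
CPM of 5 genes in 9 groups of macrophages, by CD9 tercile (across) and by CD206 tercile within it (up), with colour and printed value both giving CPM. Cd36 and Lpl are highest at the lower left and lowest at the upper right, and Trem2 and Apoe are higher toward the right. For Spp1, 1 cell holds 63.4% of the UMIs where both terciles are middle, and another 58.3% where both are upper.

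For Cd36, Lpl, Trem2 and Apoe the relation to CD9 was also present inside clusters. In the 7 macrophage clusters with at least 100 cells, the 50% of cells with more CD9 were set against the 50% with less. Cd36 was lower with CD9 in 7 of 7 clusters (ratios 0.43 to 0.86) and Lpl in 7 of 7 (0.40 to 0.77). Trem2 was higher in 7 of 7 (1.22 to 1.71), as was Apoe (1.09 to 1.30), and every interval of these 4 genes lay on 1 side of 1. Without the richest cell of each cluster these directions held, and the Trem2 interval then lay above 1 in 6 of 7. The share of all genes doing the same within clusters was not calculated, and the intervals cover counting error only. Since Cd36, Lpl and Trem2 were chosen for their relation to CD9 in these cells, these counts are description. Gpnmb was higher in 6 of 7 clusters, but its interval lay above 1 in 3 and below 1 in 1 (ratios 0.24 to 16.0), and Spp1 was higher in 6 of 7 (0.85 to 7.29). Without the richest cell of each cluster Gpnmb was higher in 4 of 7 (0.54 to 6.63) and Spp1 in 4 of 7 (0.61 to 5.78). Some of their directions within clusters thus rested on single cells. The Gpnmb interval then lay above 1 in 2 clusters and below 1 in none. For Spp1 it lay above 1 in 3 and below 1 in 1. With all cells of each cluster, Fabp5 was higher with CD9 in 5 of 7 clusters (0.83 to 2.52) and Abca1 in 3 of 7 (0.84 to 1.14). Plin2 was higher in 4 of 7 (0.70 to 1.25) and Abcg1 lower in 5 of 7 (0.83 to 1.20). The small differences of these 2 genes over all macrophages thus did not recur in most clusters. For CD206, Cd36 was lower in 7 of 7 clusters (0.63 to 0.91) and Lpl in 7 of 7 (0.41 to 0.88), with the Lpl interval below 1 in 6. Trem2 was lower in 6 of 7 (0.74 to 1.27, interval below 1 in 2), or in 4 of 7 without the richest cells, and Gpnmb in 5 of 7 (0.12 to 6.36, below 1 in 4). Spp1 was higher in 5 of 7 (0.50 to 2.79), or in 3 of 7 without the richest cells.

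Opposition along CD9 did not mean exclusion in single cells. After thinning to 5000 UMIs, the summed Cd36 and Lpl UMIs of a cell and its summed Gpnmb, Trem2 and Spp1 UMIs had a Spearman rho of −0.03 over 1669 macrophages (−0.082 in unthinned CPM). In such sparse counts a weak correlation is no finding. After thinning, 66.1% of macrophages held a Cd36 UMI and 18.9% an Lpl UMI. For the other sum, 37.7% held a Trem2, 14.1% an Spp1 and 2.64% a Gpnmb UMI. Counted by cells, the 2 sums thus reflect mainly Cd36 and Trem2. Cells with at least 1 UMI of both groups made up 32.2% of macrophages (537 cells), those with Cd36 or Lpl alone 37.3%, those with Gpnmb, Trem2 or Spp1 alone 15.3%, and 15.2% held neither. A Trem2 UMI was found in 37.9% of the cells without Cd36 and Lpl UMIs, in 37.5% of those with 1 to 2, in 38.2% of those with 3 to 5 and in 37.3% of those with 6 or more. Spp1 was found in 17.9%, 12.2%, 13.9% and 11.8% of the same groups.

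Some pairs did go together within cells. Apoe and Trem2 had the highest rho of the 45 pairs, 0.35, followed by Cd36 and Lpl at 0.22, Apoe and Abca1 at 0.20 and Gpnmb and Fabp5 at 0.16. Of the cells with an Lpl UMI 82.2% (77.5 to 86.3%) also held a Cd36 UMI, against 62.4% (59.8 to 65.0%) of the cells without one. A Fabp5 UMI was found in 18 of 44 cells with a Gpnmb UMI (40.9%, 26.3 to 56.8%) and in 11.1% of those without. Trem2 had a rho of −0.01 with Cd36 and 0.05 with Lpl, and 39 of the 45 pairs had a rho within 0.1 of 0. The 10 genes share 1 library and each cell's depth, so these values are descriptions.

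**Figure D5:**
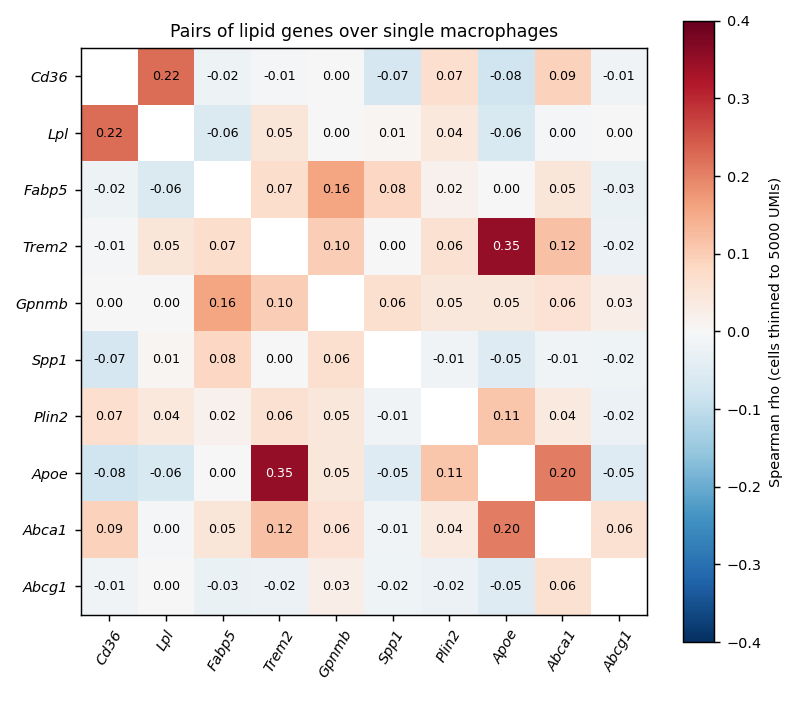
Spearman rho of each pair of genes over 1669 macrophages, each thinned to 5000 UMIs (colour and printed value). Apoe with Trem2 (0.35) and Cd36 with Lpl (0.22) stand out, and the pairs of Cd36 or Lpl with Trem2, Gpnmb or Spp1 lie between −0.07 and 0.05.

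The Apoe and Trem2 pair kept its size inside clusters, with a rho of 0.28 to 0.37 in the 7 clusters of at least 100 cells, while Cd36 and Lpl had 0.11 to 0.31. Over 4884 other genes with a UMI in at least 10% of thinned macrophages, the cells' Cd36 and Lpl sum was most like Lipa, lysosomal acid lipase (rho 0.34), followed by Dcstamp, Itgb8, the metalloproteinase Mmp12 (0.28), the cathepsin Ctsb, Prdx1, Pparg (0.26) and Stap1. The central 95% of the 4884 genes lay between −0.09 and 0.13. The Gpnmb, Trem2 and Spp1 sum was most like Lyz2 (0.29), the cathepsin Ctsd (0.21), Cd9 mRNA (0.15), Lgals1, Ctsb, the TREM2 adaptor Tyrobp (0.12), Esd and Itm2b, against a central range of −0.07 to 0.07. Ctsb was near both sums, whereas Mmp12 was among the 8 genes most like the first sum and among the 8 most opposed to the second (−0.12). Likeness to a sum need not hold for each of its genes, since Trem2 and Spp1 had a rho of −0.003 with each other.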

How the data were processed

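The deposited values were counts of UMIs per gene and per antibody tag in each barcode, which the file headers attribute to Cell Ranger 8.0.1. The submitters' processing notes name mm10, and the sources used here do not say how the authors kept barcodes. The genes and lists were chosen with earlier results of these data known. Barcodes under 200 genes or over 10% mitochondrial UMIs were dropped, which left 2215 of 2237. Scrublet's automatic threshold marked 7 cells (0.316%), under 0.5% and thus taken as failed, so the 40 highest-scoring cells (1.81%) were removed. Gene IDs sharing a symbol (38 symbols) were reduced to the ID with most UMIs. Clustering used scanpy 1.11.5 with 2000 variable genes, 30 components, 15 neighbours and Leiden resolution 1, without 151 genes (the 10 genes and related lists), and the lymphoid cluster was clustered again. Cluster names need at least 3 markers with a UMI in 25% of cells at 2 times the CPM (10 added) of the comparison cells. Ratios of summed UMIs carry exact conditional binomial intervals, sums Poisson intervals and shares Clopper-Pearson intervals (95%). Members past 1.5-fold were counted among genes with at least 20 UMIs in both sums together. Listed genes were named at 100 UMIs or more and 1.5-fold, at most 4 per list and direction, by the interval bound nearest to 1, and the 8 genes most like each sum were named. A gene that this rule names is not reported here. The ratio step was checked on simulated counts. With 1 sample no test was made.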

Additional observations from a re-analysis of the deposited data

How the results depend on the processing

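No direction of the summary ratios turned under any alternative tried. Along CD9 the mean log2 ratio of Gpnmb, Trem2 and Spp1 was 1.64. It was 1.41 with at least 10000 RNA UMIs, 0.90 at a complement limit of 4000 CPM, 1.21 with doublet candidates kept, 1.37 without hormone-rich cells, 1.24 without stress-rich cells, 1.36 without the richest cell of each gene, 1.91 by raw CD9 counts, 1.93 by CD9 per RNA UMI, 1.13 between 50% groups, and 1.88 in macrophage-like clusters alone, the last chosen after seeing the data. For Cd36 and Lpl (−1.40) it was −1.49 relative to the median gene, −2.30 between the extreme deciles and −1.06 between the 50% groups. Along CD206 Cd36 and Lpl (−1.01) had −1.15 by raw counts, −1.70 between deciles, −0.84 between the 50% groups and −1.10 in macrophage-like clusters alone. Gpnmb, Trem2 and Spp1 (0.43) had 0.31 at 10000 UMIs, 0.12 at 4000 CPM, 0.24 with doublet candidates kept, 0.26 without stress-rich cells, 0.12 without the richest cells and 0.52 by raw counts. The rho of −0.03 was −0.082 in unthinned CPM. The cause of these shifts was not tested. The other 54 values moved by less than counting error or, for counts, by less than 1.5 times, and of the ratios of single genes, those near 1 crossed it, Trem2, Abca1 and Abcg1, and Gpnmb did so along CD206 (log2 −0.21 to 0.67). Under all alternatives 9 or 10 genes were 1.5-fold higher in macrophages than in lymphoid cells. The share of all genes past 1.5-fold either way along CD9 was 16.6%, but 8.64% with at least 100 UMIs and 39.6% with any UMI, and along CD206 11.8%, 4.29% and 36.4%. Levels and ratios without the richest cell of a cluster or cell class were added after seeing the data. No paired analysis was possible because the mice were pooled into 1 sample. Depth limits Gpnmb most, with 881 UMIs in 1669 macrophages.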
